A study of Mus musculus with 7 samples.

Results

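The inhibins, activins, anti-Müllerian hormone (AMH) and the receptor for follicle-stimulating hormone (FSH) form the endocrine output and input of the Sertoli cell, the somatic cell of the seminiferous tubule that supports germ cells. The group was chosen by gene symbol, as 10 genes for ligand subunits, receptors and an antagonist, out of 18336 genes named on the arrays. All probe sets annotated to exactly 1 of these symbols were kept. They numbered 19 for 10 genes in the table of primary Sertoli cells and TM4 cells, and 10 for 9 genes in the testis table, where no probe set was annotated to Amhr2 alone.

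Mouse RNA was hybridised to 7 single-colour Affymetrix arrays, 1 for each group. The groups were ERM knockout and wild-type whole testis at 4 weeks, primary Sertoli cells of ERM knockout mice at 10 and at 4 weeks and of wild-type mice at 4 weeks, and the TM4 cell line with and without transfection of ERM. ERM, the product of Etv5, is an ETS-family transcription factor, and TM4 is a line started from mouse Sertoli cells. The labels do not give the allele, the strain, the number of animals in a preparation or the ERM construct. With 1 array a group, no difference had a replicate check, no test across samples was possible, and precision is limited by how few arrays there are.

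Inhibins are dimers of an alpha subunit, from Inha, with a beta subunit, from Inhba or Inhbb, and they lower FSH release from the pituitary. Pairs of beta subunits are activins, which signal through the type II receptors Acvr2a and Acvr2b and the type I receptor Acvr1b, and which follistatin (Fst) binds and blocks. AMH is the Sertoli cell hormone that removes the Müllerian ducts in the male fetus, acts through its own type II receptor Amhr2, and declines at puberty as a sign of Sertoli cell maturation. FSH acts on the testis through Fshr on Sertoli cells.

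Signals are given after each array was scaled so that its trimmed mean was 500, and values under a floor of 100 count as not measurable above background. A difference was counted when it was at least 2-fold for the brightest probe set of a gene. As a yardstick for probe noise, the standard deviation of log2 ratios between probe sets of the same bright gene was 0.25 in the testis pair, 0.20 for knockout against wild-type Sertoli cells at 4 weeks, 0.25 for knockout Sertoli cells at 10 against 4 weeks, 0.18 for those at 10 weeks against wild type, 0.15 in the TM4 pair and 0.46 for wild-type Sertoli cells against TM4. That spread lies between probe sets on the same arrays and not between animals or cultures.

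The labels were checked before the comparisons. Of 14 Sertoli cell markers on the larger array, 13 lay above the floor on each primary Sertoli array. Krt18 was below it on both 4-week arrays and Espn on the 10-week array. On each TM4 array 12 were above the floor, and Wt1, which defines Sertoli cells, was below it on both. The summed signal of the list was 67552, 63253 and 55230 on the arrays of knockout Sertoli cells at 10 weeks, knockout at 4 weeks and wild type, against 5291 and 4975 in TM4 with and without ERM. Etv5 itself was not lower on the arrays labelled knockout. Its brightest probe set, 1428142_at, read 995, 910 and 710 in knockout Sertoli cells at 10 weeks, knockout at 4 weeks and wild type, and 473 and 405 in TM4 with and without ERM. The ratio of knockout to wild type at 4 weeks was 1.05 to 1.28 over its 3 probe sets, and that of TM4 with to without ERM 1.13 to 1.51. No probe set of the testis table was annotated to Etv5 alone. The deleted part of the gene is not given, and a probe set outside it would check nothing, so every direction below is between arrays as their labels name them.

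The primary Sertoli arrays and the TM4 arrays differed most in the ligand subunits and in the AMH receptor. Inha read 4320, 7405 and 4717 in knockout Sertoli cells at 10 weeks, knockout at 4 weeks and wild type, and 167 and 206 in TM4 with and without ERM. Inha was therefore high on the primary arrays and low, though above the floor, on both TM4 arrays. For wild-type Sertoli cells against untransfected TM4 the Inha ratio was 22.9.

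The beta subunits lay the other way round. Inhba (1422053_at) read 270, 229 and 382 in knockout Sertoli cells at 10 weeks, knockout at 4 weeks and wild type, and 1650 and 1646 in TM4 with and without ERM, so that wild-type Sertoli cells were 4.31-fold below untransfected TM4. Its other probe set, 1458291_at, was under the floor on all arrays but that of the 10-week knockout, where it read 117. Inhbb (1426858_at) read 619, 350 and 318 in the same order of Sertoli arrays and 3766 and 3833 in TM4, a 12.1-fold lower signal in wild-type Sertoli cells. The other Inhbb probe set, 1426859_at, had the same direction but a smaller difference, 378 in wild-type Sertoli cells against 698 in untransfected TM4, or 1.85-fold. On the TM4 arrays the alpha subunit, which inhibin requires, read 167 with and 206 without ERM, far below its level on the primary Sertoli arrays. Both beta subunits were higher on the TM4 arrays than on the primary arrays. Apart from 1458291_at of Inhba, all 3 subunits were above the floor on every array.

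**Figure D1:**
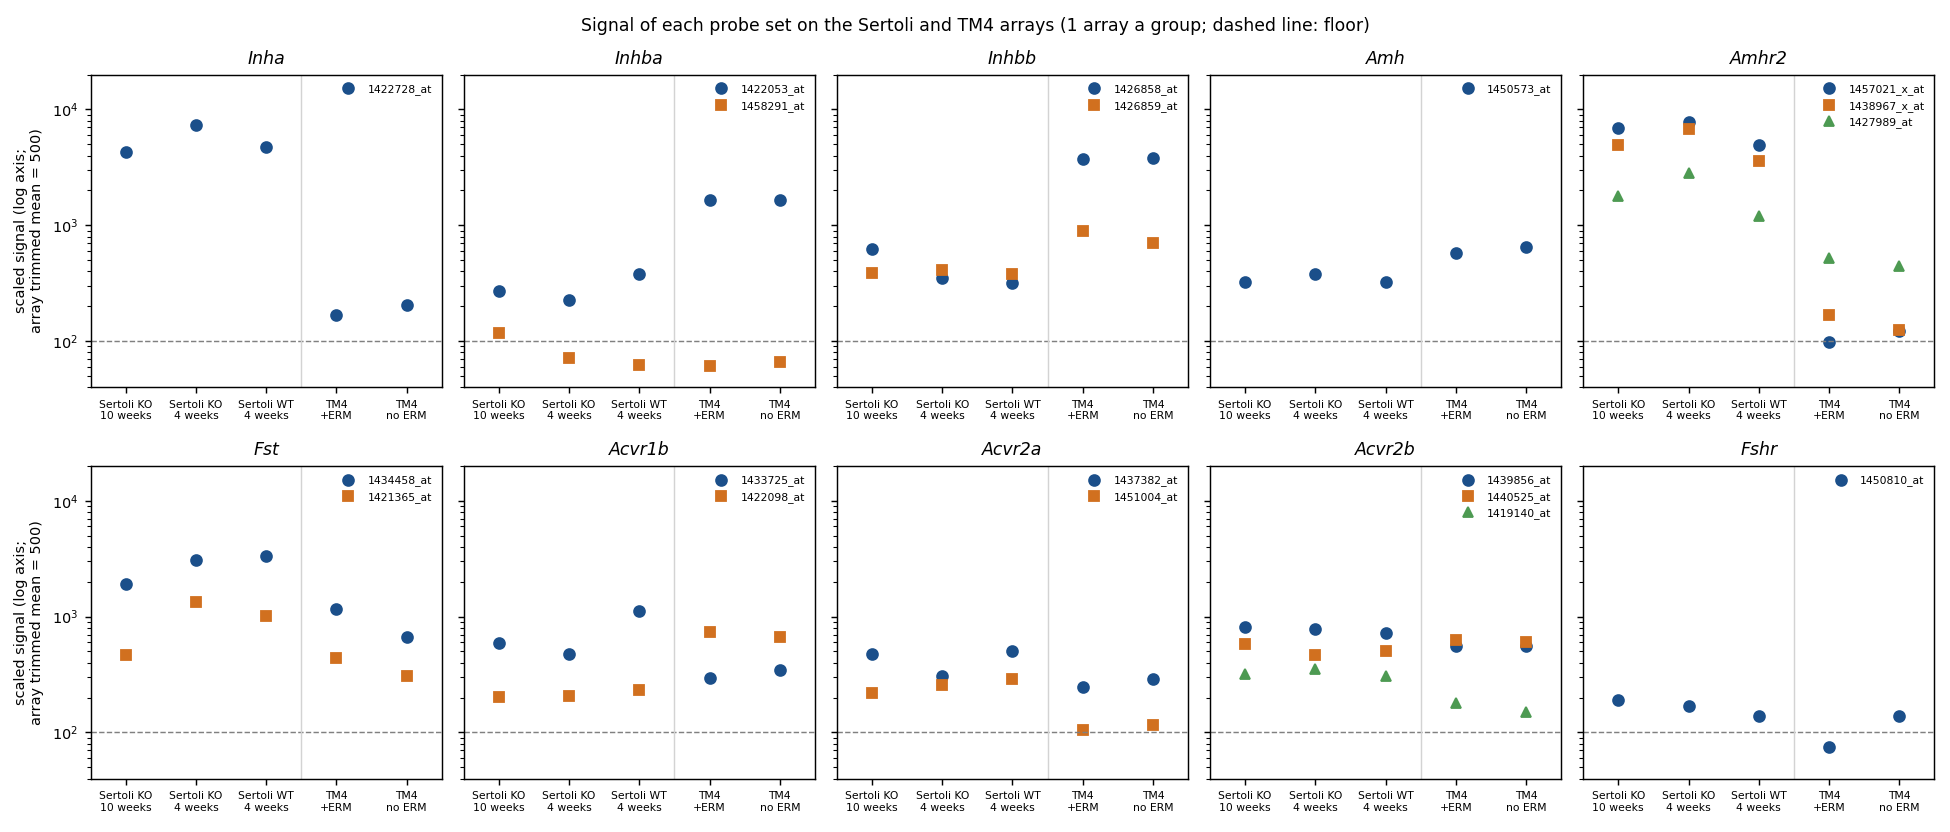
Scaled signal (log axis) of each probe set of the 10 genes on the 5 Sertoli and TM4 arrays, 1 point an array, with the floor of 100 as a dashed line. Inha and Amhr2 stand high on the 3 primary Sertoli arrays and Inhba and Inhbb on the 2 TM4 arrays, and Fshr stays between 74.7 and 190.

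Amhr2 was higher in the primary cells on all 3 of its probe sets. The probe set 1457021_x_at read 6902, 7789 and 4960 in knockout Sertoli cells at 10 weeks, knockout at 4 weeks and wild type, against 98.8 and 122 in TM4 with and without ERM. The probe set 1438967_x_at read 4946, 6798 and 3554 on the Sertoli arrays, against 168 and 125. The third, 1427989_at, whose name carries no mark of possible cross-hybridisation, read 1777, 2831 and 1214, against 519 and 445. The ratio of wild-type Sertoli cells to untransfected TM4 was 40.7, 28.4 and 2.72 on these probe sets, so the direction was shared and the size was not.

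AMH itself differed much less. Amh read 323, 381 and 322 in knockout Sertoli cells at 10 weeks, knockout at 4 weeks and wild type, and 573 and 651 in TM4 with and without ERM. Wild-type Sertoli cells were 2.02-fold below untransfected TM4, just past 2-fold. Within the Sertoli arrays the Amh values were at most 1.18-fold apart.

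Follistatin was higher in the primary cells on both probe sets. Fst (1434458_at) read 1913, 3069 and 3328 in knockout Sertoli cells at 10 weeks, knockout at 4 weeks and wild type, against 1168 and 669 in TM4 with and without ERM. The second, 1421365_at, read 462, 1324 and 1016, against 437 and 308. On the first probe set all Sertoli arrays lay above both TM4 arrays, and wild-type Sertoli cells were 4.98-fold above untransfected TM4. On the second the 10-week array was low, at a level close to that of TM4 with ERM.

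The activin receptors spanned at most 3.76-fold over the 5 arrays on any probe set. Acvr1b had probe sets of opposite direction: 1433725_at read 1117 in wild-type Sertoli cells and 345 in untransfected TM4, while 1422098_at read 231 and 666. No direction between the cell types can be given for it. Acvr2a was higher in wild-type Sertoli cells than in untransfected TM4 on both probe sets, at 508 against 291 and 287 against 115. Acvr2b (1439856_at) read between 552 and 816 on all 5 arrays, the narrowest span of the brightest probe sets. It read 721 in wild-type Sertoli cells and 552 in untransfected TM4. On 1419140_at Acvr2b read 309 and 150, but on 1440525_at 504 and 600, so its probe sets differed in direction.

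Fshr was dim throughout. It read 190, 170 and 139 in knockout Sertoli cells at 10 weeks, knockout at 4 weeks and wild type, and 74.7 and 139 in TM4 with and without ERM. Only the array of TM4 with ERM was below the floor, and no pair of Sertoli arrays differed by more than 1.37-fold. The FSH receptor, a functional mark of Sertoli cells, thus gave the same signal on the wild-type Sertoli and the untransfected TM4 array.

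In all, 4 of the 10 genes (Inha, Amhr2, Fst and, on its brighter probe set, Acvr1b) passed 2-fold upward and 3 (Inhba, Inhbb and Amh) downward in wild-type Sertoli cells against untransfected TM4. Over all genes of this comparison 33.9% were at least 2-fold apart, 17.8% higher and 16.1% lower, so such differences were common between these arrays. The median log2 ratio was 0.59 over the 10 genes and -0.08 over all genes. The TM4 arrays were dimmer as deposited, and without scaling the median of all genes moved to 0.60 and the share of higher genes among those called was 82.6%, against 52.6% with scaling. Germ cell markers summed to 25659 in wild-type Sertoli cells and 5464 in untransfected TM4, and macrophage markers to 13569 and 4269. Peritubular and fibroblast markers summed to 17875 and 36758, and went both ways. Of 11, 4 were at least 2-fold lower in wild-type Sertoli cells and 2 higher. Tagln was 20.6-fold, Col1a1 17.1-fold, Col1a2 13.3-fold and Col3a1 6.05-fold lower. Dcn was 7.28-fold and Pdgfra 3.61-fold higher, although another probe set of Dcn stood at -0.29 on the log2 scale. TM4 is a cell line, and the part of such cells of the primary preparation in the differences was not tested. In the primary preparation, fewer cells of a type and less RNA per cell cannot be told apart.

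The stretches before the starts of Inha, Amhr2, Inhba and Inhbb are shown because these genes had the widest spans over the 5 arrays, the first pair high in primary Sertoli cells and the second pair high in TM4. They are RefSeq sequences of build GRCm38.p6 that end at the base before the annotated start: chr1:75507359-75507608 (plus strand) for Inha, chr15:102445117-102445366 (plus strand) for Amhr2, chr13:16011601-16011850 (plus strand) for Inhba and chr1:119422249-119422498 (minus strand) for Inhbb. Capitals mark AGGTCA, a half-site of nuclear receptors, and CAAGGTC, the extended form preferred by NR5A1 (SF-1), an orphan nuclear receptor of gonadal cells, on either strand.
Inha: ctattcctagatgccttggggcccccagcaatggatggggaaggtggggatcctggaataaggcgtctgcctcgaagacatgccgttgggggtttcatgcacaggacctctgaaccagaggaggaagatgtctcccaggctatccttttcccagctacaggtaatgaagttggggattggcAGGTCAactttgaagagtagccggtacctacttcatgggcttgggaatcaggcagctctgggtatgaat
Amhr2: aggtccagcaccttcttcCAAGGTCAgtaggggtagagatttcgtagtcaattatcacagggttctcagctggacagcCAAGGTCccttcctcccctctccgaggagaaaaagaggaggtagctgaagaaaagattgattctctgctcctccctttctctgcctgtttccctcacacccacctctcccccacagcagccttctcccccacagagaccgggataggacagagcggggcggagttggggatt
Inhba: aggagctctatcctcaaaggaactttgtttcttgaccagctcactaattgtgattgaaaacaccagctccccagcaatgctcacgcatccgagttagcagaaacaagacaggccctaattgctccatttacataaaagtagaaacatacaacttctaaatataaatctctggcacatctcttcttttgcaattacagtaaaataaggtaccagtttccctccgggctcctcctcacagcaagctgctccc
Inhbb: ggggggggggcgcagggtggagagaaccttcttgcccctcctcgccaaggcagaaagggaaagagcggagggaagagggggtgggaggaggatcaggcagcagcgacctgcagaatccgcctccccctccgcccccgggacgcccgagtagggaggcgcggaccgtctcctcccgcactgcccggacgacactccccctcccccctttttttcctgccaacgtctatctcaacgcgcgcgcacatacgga

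Inha held 1 match to AGGTCA, starting 69 bases before the start. Amhr2 held 2 matches to CAAGGTC, starting 232 and 172 bases before it, the first of which overlaps its match to AGGTCA. Inhba and Inhbb held neither. Of 32851 promoters of the same 250 bases, 14.0% held AGGTCA and 3.32% CAAGGTC. The ETS core GGAA was found in all 4 and in 93.4% of promoters, and the extended ETS site CCGGAAGT in none of the 4 and in 2.88%. The GATA core GATA was also found in all 4 and in 53.6% of promoters, and the E-box CACGTG in none of the 4 and in 6.02%. The motifs were chosen after the promoter letters had been seen, so these shares do not measure how unusual the matches are. A match is a description of letters, and binding was not measured.

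In primary Sertoli cells at 4 weeks, the array labelled knockout had higher Amhr2 and Inha and lower Acvr1b, Inhba and Acvr2a than wild type, the last of these and Acvr1b by unequal amounts on their probe sets. Amhr2 read 7789 against 4960, 6798 against 3554 and 2831 against 1214 on its 3 probe sets, ratios of 1.57, 1.91 and 2.33. All 3 were higher, and the size was smallest on the brightest. Inha read 7405 in knockout and 4717 in wild-type cells, a ratio of 1.57 with a log2 value of 0.65.

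Inhba was lower, with 229 in knockout against 382 in wild-type cells (1.67-fold). Acvr1b, the type I activin receptor, read 471 against 1117 on 1433725_at, which is 2.37-fold lower, and 208 against 231 on 1422098_at. The decrease thus rested on its brighter probe set, and with log2 ratios averaged over both it was -0.70, within 2-fold. Acvr2a read 308 against 508 (1.65-fold lower) and 255 against 287 on its 2 probe sets.

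Inhbb stood at ratios of 1.10 on both probe sets, Amh at 1.18 and Fshr at 1.22. The 3 Acvr2b probe sets ran from 0.92 to 1.15, and those of Fst were 0.92 and 1.30, on either side of equality. Of the 10 genes, 1 (Acvr1b) passed 2-fold downward on the brightest probe set and none upward, and over all genes of this comparison 3.86% were at least 2-fold apart, 3.18% lower and 0.681% higher. Without probe sets prone to cross-hybridisation Amhr2 was counted as higher too, at a log2 ratio of 1.22. The median over the 10 genes was 0.13, against -0.02 over all genes. The central range of all genes, taken as for testis below, ran between -1.11 and 0.72 on the log2 scale. On their brightest probe sets Amhr2 (0.65), Inha (0.65), Inhba (-0.74) and Acvr2a (-0.72) lay inside it, and Acvr1b (-1.25) below it. The other probe sets of Amhr2 (0.94 and 1.22) lay above that range, and that of Acvr1b (-0.15) inside it.

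Other cell types also differed between these arrays. Macrophage markers summed to 5332 in knockout against 13569 in wild-type cells, with 5 of 12 at least 2-fold lower. Leydig markers, of which 5 were on the array, summed to 3731 and 2529, and Sertoli markers to 63253 and 55230. Germ cell markers summed to 24858 and 25659, but 2 of 16 (Stra8 and Tex15) were at least 2-fold lower and 1 (Prm2) higher. Peritubular and fibroblast markers summed to 14455 and 17875, with 2 of 10 (Col3a1 and Dcn) at least 2-fold lower on their brightest probe sets. The 5' probe set for 18S ribosomal RNA read 4551 in knockout and 349 in wild-type cells, and 352 in the 10-week knockout cells. Amhr2 and Inha are also made by Leydig cells and Inhba by macrophages, and the part of these cells and of the ribosomal signal in the ratios was not tested.

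**Figure D2:**
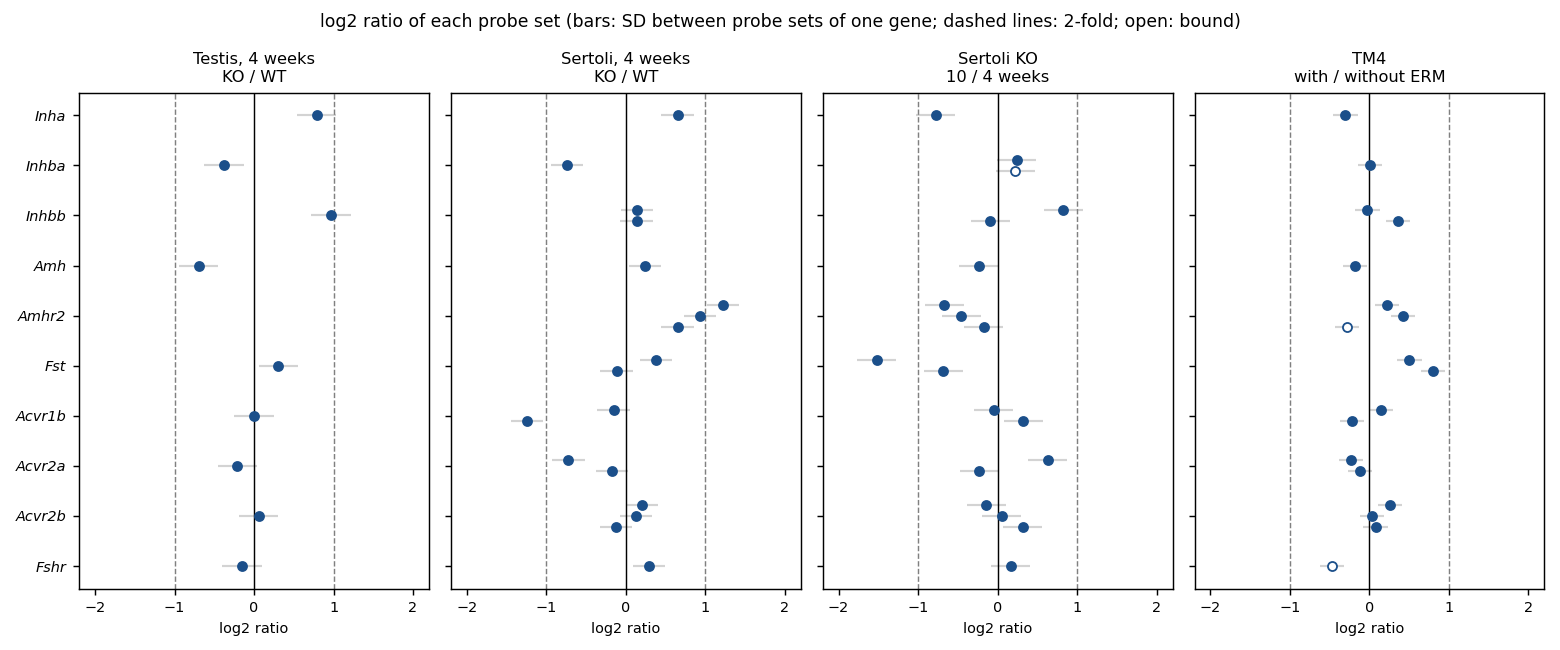
log2 ratio of each probe set in 4 comparisons, first over second group as named above each panel. Bars are the standard deviation between probe sets of the same bright gene, pooled over all such genes of a comparison. They are not the spread of the gene drawn. Dashed lines mark 2-fold and open points are bounds. Amhr2 lies right of 0 on all 3 probe sets in Sertoli cells at 4 weeks and Fst left of 0 on both at 10 against 4 weeks.

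In knockout Sertoli cells, follistatin was lower at 10 than at 4 weeks on both probe sets. Fst read 462 at 10 weeks against 1324 at 4 weeks on 1421365_at (2.87-fold lower) and 1913 against 3069 on 1434458_at (1.60-fold lower). The 10-week values were also below wild type at 4 weeks, 2.20-fold and 1.74-fold. Both 4-week arrays were therefore above the 10-week array on either probe set. The age difference passed 2-fold on 1421365_at and in the mean of both log2 ratios, -1.10, but not on the brighter probe set, which was the one counted.

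Inha and Amhr2 were lower at 10 than at 4 weeks in knockout cells. Inha was 1.71-fold lower, and its 10-week value of 4320 lay beside the 4717 of wild type. Amhr2 was 1.13-fold, 1.37-fold and 1.59-fold lower on 1457021_x_at, 1438967_x_at and 1427989_at, and stayed 1.39-fold to 1.46-fold above wild type. For Amhr2 the 10-week knockout array thus stood between the other Sertoli arrays on each probe set.

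Inhbb was higher at 10 weeks on 1426858_at alone, 619 against 350 at 4 weeks (ratio 1.77) and against 318 in wild type (1.95). On 1426859_at it read 389, against 415 and 378. Acvr1b on 1433725_at read 590 at 10 weeks, against 471 in knockout and 1117 in wild-type cells at 4 weeks, so that it was 1.89-fold below wild type. Amh at 10 weeks had a ratio of 0.85 to the 4-week knockout array and of 1.00 to wild type. Between the knockout ages Inhba (1422053_at) stood at 1.18, Fshr at 1.12 and the Acvr2b probe sets between 0.91 and 1.25, while Acvr2a had probe sets of opposite direction (1.55 and 0.85). Between the knockout ages the central range of all genes, taken as for testis below, was -1.17 to 1.25 on the log2 scale. On their brightest probe sets Fst (-0.68), Inha (-0.78) and Inhbb (0.82) lay inside it. The other probe set of Fst, 1421365_at (-1.52), lay below it. None of the 10 genes was at least 2-fold apart between the knockout ages, where 7.7% of all genes were (4.19% higher and 3.51% lower). The same held for 10-week knockout cells set against 4-week wild type, where 5.85% of all genes were that far apart, 1.62% higher and 4.22% lower. The last pair differs in age as well as in labelled genotype, and their parts cannot be told apart. The comparison at 4 weeks shares the 4-week knockout array with that between ages and the wild-type array with this last pair, and both of the others share the 10-week array.

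Germ cell markers summed to 5813 on the 10-week knockout array, against 24858 on the 4-week knockout and 25659 on the wild-type array, with 11 of 16 at least 2-fold lower between the knockout ages. Leydig markers summed to 6214, against 3731 and 2529, and macrophage markers to 9300, against 5332 and 13569. Peritubular and fibroblast markers summed to 21563, against 14455 and 17875. Among them Dcn read 6122 on its brightest probe set, against 3027 and 6207. Their part in the differences with age was not tested.

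In whole testis at 4 weeks the subunits of inhibin B were higher and AMH lower on the array labelled knockout. Inha read 1501 in knockout and 870 in wild-type testis, a ratio of 1.72. Inhbb read 492 against 251, a ratio of 1.96 and so just within 2-fold. Amh read 541 against 877 (1.62-fold lower) and Inhba 1036 against 1350 (1.30-fold lower).

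The receptors and follistatin differed less in testis. Fst read 1038 in knockout and 840 in wild-type testis, Fshr 451 against 502, Acvr1b 808 against 807, Acvr2b 628 against 604 and Acvr2a (98841_at) 387 against 447. The other Acvr2a probe set was below the floor on both arrays. None of 9 genes was at least 2-fold apart, as against 1.38% of all genes (0.532% higher and 0.852% lower). On the log2 scale the central 95% of all genes ran between -0.72 and 0.73. Inha (0.79) and Inhbb (0.97) lay outside that range, and Amh (-0.70), Inhba (-0.38) and Fst (0.31) inside it.

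Sertoli markers as a list summed to 19317 in knockout and 15018 in wild-type testis, a ratio of 1.29 with 9 of 11 members above equality. Clu, at 7053 and 5747, made up much of both sums and was 1.23-fold higher. Kitl was 1.95-fold, Wt1 1.69-fold, Rhox5 1.66-fold, Cldn11 1.65-fold and Aard 1.58-fold higher. Gata4 had a ratio of 1.00 and Tjp1 was 1.31-fold lower. Macrophage markers summed to 5562 and 4173, a ratio of 1.33 with 10 of 12 above equality, and Leydig markers to 9844 and 8383. Peritubular and fibroblast markers summed to 9991 and 7700, with 7 of 10 above equality and 3 below. Of these 2 passed 2-fold upward, Dcn at 2.04-fold and Pdgfra at 2.26-fold. The other probe set of Pdgfra stood at -0.05 on the log2 scale. Germ cell markers summed to 60205 and 57144, and 2 of 13 passed 2-fold downward: Dazl was 3.39-fold and Stra8 at least 2.86-fold lower in knockout testis. The part of tissue make-up in the higher Inha and Inhbb and in the lower Amh was not tested.

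**Figure D3:**
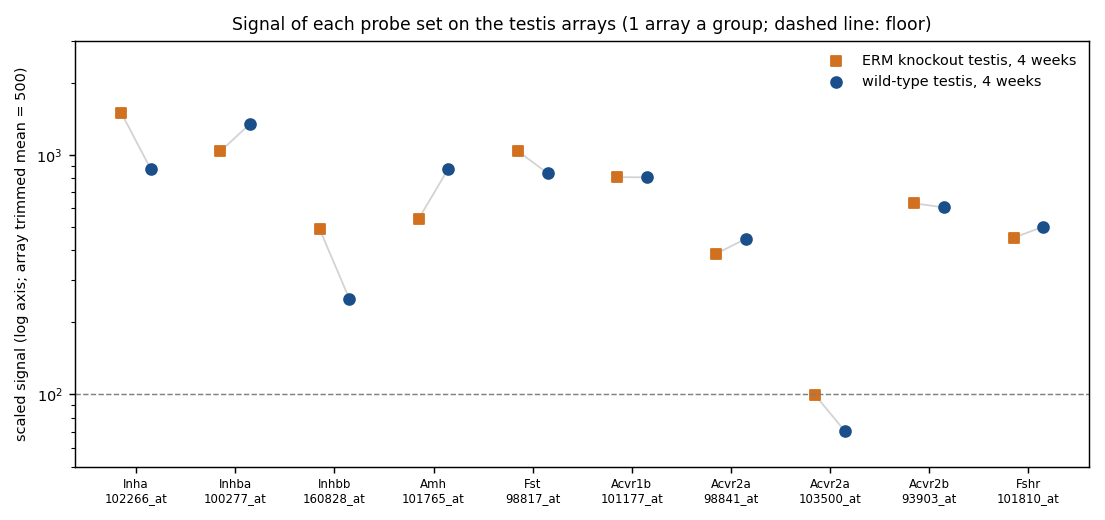
Scaled signal (log axis) of each probe set on the knockout (squares) and wild-type (circles) testis arrays, 1 array each, with the floor of 100 as a dashed line. Inha and Inhbb are higher and Amh and Inhba lower on the knockout array, and 103500_at of Acvr2a is below the floor on both.

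In TM4 cells transfection with ERM went with a higher follistatin signal, and the other differences in the group with both arrays above the floor were smaller. Fst read 1168 with and 669 without ERM on 1434458_at (ratio 1.75) and 437 against 308 on 1421365_at (1.42). Inhba had a ratio of 1.00, Inhbb of 0.98 and 1.28 on its 2 probe sets, and Amh of 0.88. Inha read 167 against 206 and Fshr 74.7 against 139, both near or under the floor. The probe sets of Acvr1b, Acvr2a and Acvr2b had ratios between 0.85 and 1.19. Those of Amhr2 were 1.17 and 1.34, while the third probe set read 98.8 with ERM, below the floor, against 122 without. None of the 10 genes was at least 2-fold apart, where 0.724% of all genes were (0.303% higher and 0.421% lower). The median over the 10 genes was -0.20, against 0.00 over all genes, and the log2 ratios of Fst, 0.80 and 0.50, were the furthest above 0.

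The wider pathway was described by 3 lists with 73 genes in all: activin, AMH and transforming growth factor beta (TGF-beta) family signalling, FSH signalling and response, and regulators of the Amh and Fshr promoters. In testis 1 of 55 measurable genes passed 2-fold, upward, beside 0.532% of all genes higher and 0.852% lower. It was Rgs2, a regulator of G protein signalling, at least 2.57-fold higher since its wild-type signal of 81.8 was under the floor. Smad7, an inhibitory Smad, had a log2 ratio of 0.90, and Smad5 of -0.82 as a bound. Smad2 and Smad1, signal transducers of the family, stood at -0.55 and -0.52.

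In Sertoli cells at 4 weeks, 3 of 63 measurable genes passed 2-fold downward in knockout and none upward, beside the 3.18% and 0.681% of all genes. Fstl1, a secreted protein of the follistatin-like family, read 315 in knockout and 2149 in wild-type cells, 6.83-fold lower, and its other probe set gave -2.72 on the log2 scale. At 10 weeks the knockout array read 2133. The 4-week knockout array alone was thus low for Fstl1. Nr4a1, an immediate early nuclear receptor, was lower at 126 against 383, and Dmrt1, a transcription factor of Sertoli and germ cells, at 183 against 395.

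Several members of these lists stayed within 2-fold at 4 weeks. Fstl3, a further activin-binding protein, read 410 in knockout against 221 in wild-type cells (ratio 1.86). Tgfbr3, or betaglycan, the coreceptor that lets inhibin block activin, read 671 against 1319 (1.97-fold lower), and its other probe set gave -0.28 on the log2 scale. Gata4, which activates the Amh and Inha promoters, stood at 0.93 and 0.98 on the log2 scale on its probe sets, and the nuclear receptor Nr0b1 at 0.82. The water channel Aqp8 stood at 0.81 and Junb at 0.69. Smad7, Gata6 and Pde8a had probe sets of opposite direction.

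Between the knockout ages 6 of 64 measurable genes passed 2-fold upward and 4 downward at 10 weeks, beside 4.19% and 3.51% of all genes. Fstl1 was 6.77-fold and Tgfbr3 2.03-fold higher, and both were close to their wild-type level. Smad7 (log2 ratio 1.61, and 0.35 on its other probe set), Bmpr1b (1.09, and 0.34), Nr4a1 (1.48) and Sox8, a relative of Sox9 (at least 2.37-fold higher), were the others that were higher. Aqp8 was 8.72-fold lower, at 155 at 10 weeks against 1349 at 4 weeks in knockout and 768 in wild-type cells. Gata1, a Sertoli cell factor, was 2.34-fold lower at 864 against 2020, and Nr0b1 (-1.07) and Pde8a (-1.10) were also lower. Creb1, the transcription factor activated by cyclic AMP, had a log2 ratio of 1.00 and was within 2-fold.

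For 10-week knockout cells set against 4-week wild type, 1 of 64 passed 2-fold upward (Sox8) and 3 downward, beside 1.62% and 4.22% of all genes, so that both counts were near the background. These were Aqp8 (-2.31), Pde8a (-1.64, and 0.28 on its other probe set) and Pde3b (-1.33). Pde8a and Pde3b are phosphodiesterases, which degrade cyclic nucleotides. In TM4 none of 63 genes was at least 2-fold apart with against without ERM, and the furthest were Sox9 (0.59, a bound), Smad7 (0.55) and Fos (0.53).

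For wild-type Sertoli cells against untransfected TM4, 18 of 66 passed 2-fold upward and 12 downward, beside 17.8% and 16.1% of all genes. Promoter regulators of Amh and Fshr were higher in 6 of 11 and lower in none, with Sox9 at least 52.2-fold, Wt1 at least 38.0-fold and Nr5a1 at least 2.96-fold higher. Other probe sets of Sox9 lay between -0.41 and 0.16 on the log2 scale and that of Nr5a1 at -0.41. Akap12, a scaffold of cyclic AMP signalling, was 31.1-fold higher. The type I receptor Tgfbr1 had a log2 ratio of 3.25 and the type II receptor Tgfbr2 of -2.54, although another probe set of Tgfbr2 stood at 1.87. Fstl3 was 2.62-fold lower in Sertoli cells.

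**Figure D4:**
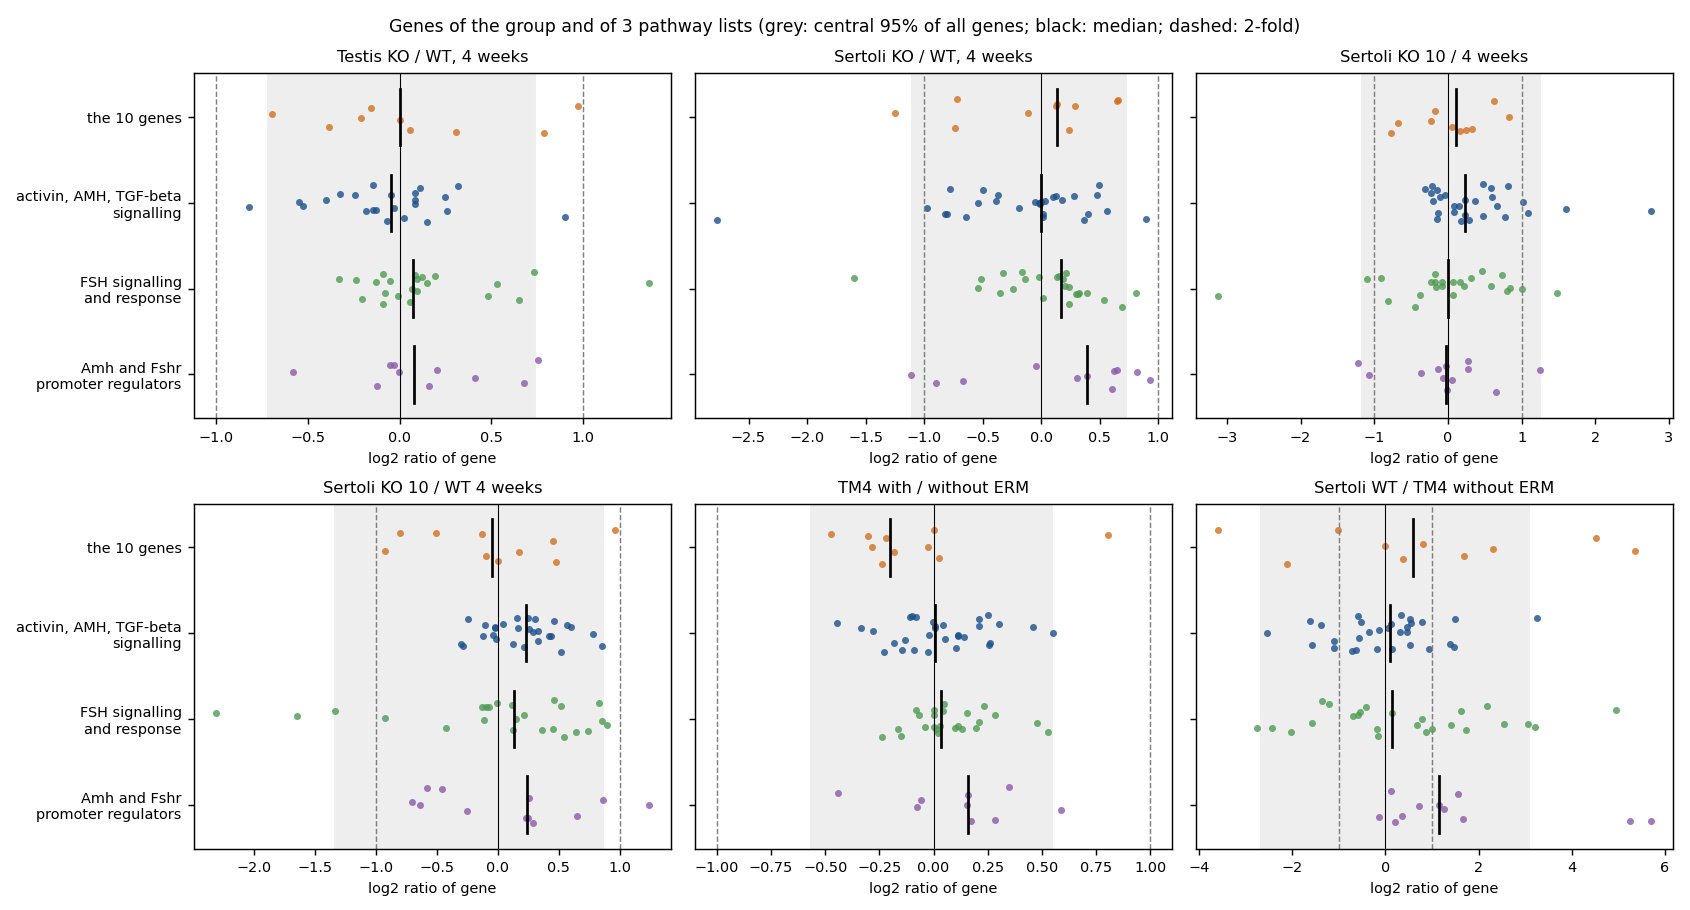
log2 ratio of each gene at its brightest probe set for the 10 genes and the 3 pathway lists in 6 comparisons, with the list median as a black bar, the central 95% of all genes in grey and 2-fold as dashed lines. Ratios with an array below the floor are drawn at their bound, and horizontal scales differ between panels; in TM4 with against without ERM no gene of the 4 rows reaches 2-fold.

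The genes whose pattern over the 5 Sertoli and TM4 arrays was closest to a member were found by the root mean square difference of centred log2 signals, among 13231 genes above the floor on all 5 arrays. Only members spanning at least 4-fold were used. Inha was closest to C1s1 (0.13), a complement protease, to Npl (0.15) and to Rhpn2 (0.18). Amhr2 was closest to Mgarp (0.20), Aard (0.29) and the secreted chaperone Clu (0.30), of which Aard and Clu are on the Sertoli marker list. Inhba was closest to Zfp647 (0.05), Zdhhc8 (0.08) and Spc25 (0.09), a kinetochore gene. Inhbb was closest to Osbpl3, Aurkb and Eps8 (0.21, 0.21 and 0.22), Aurkb being a mitotic kinase. Fst was closest to 2210011K15Rik (0.14), Agtpbp1 (0.15) and Fbxw2 (0.17). The 5 arrays come from only the primary cells and the line, and the likeness is a description of these arrays.

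**Figure D5:**
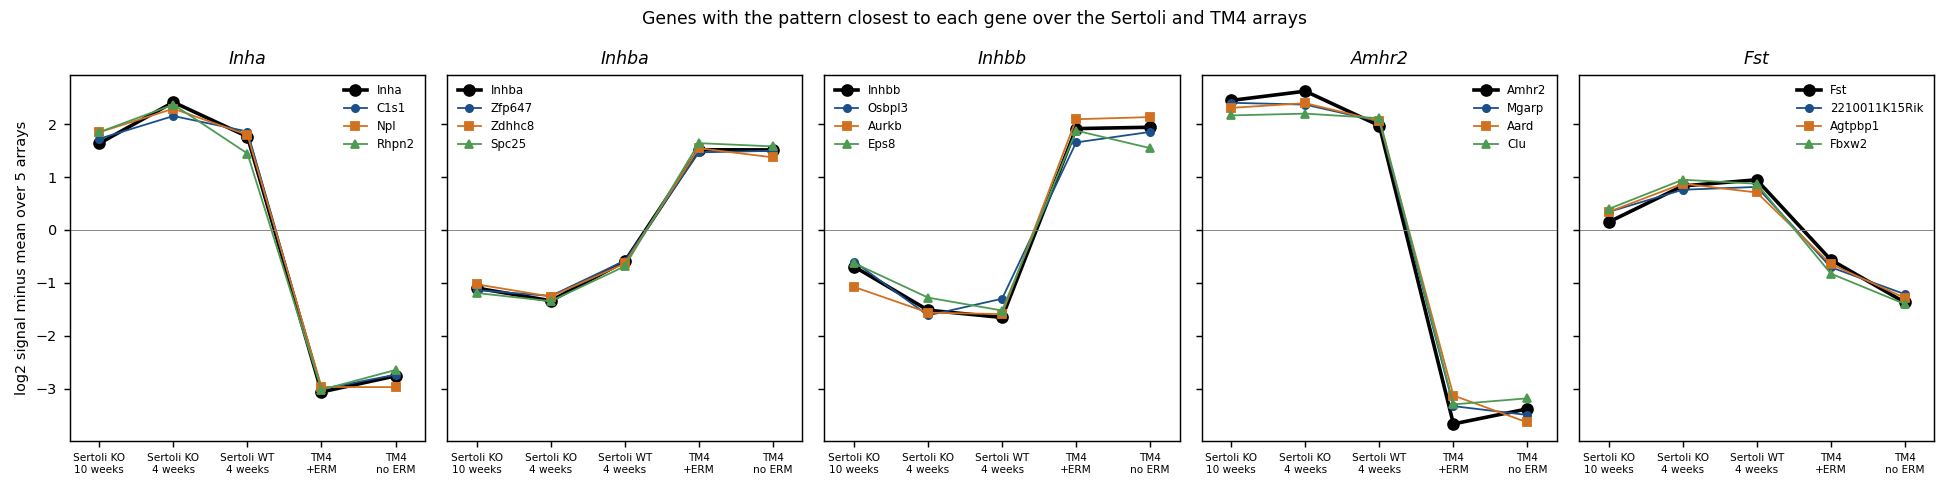
Centred log2 signal over the 5 arrays for the 5 members that span at least 4-fold (black) and the 3 genes closest to each (coloured), 1 point an array. Inha and Amhr2 step down and Inhba and Inhbb up between the primary Sertoli arrays and the TM4 arrays, and Fst is lowest on the TM4 array without ERM.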

How the data were processed

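The deposited values are linear probe set intensities, in a table of 45101 probe sets (Sertoli and TM4 arrays) and a table of 12488 (testis arrays). The software and scaling by which the authors made the intensity values are, in the sources used here, not given. Samples were grouped by their labels. Arrays were brought to a trimmed mean of 500, taken over probe sets other than controls, from percentile 2 to percentile 98. Deposited trimmed means were 183 to 299 in the larger table and 468 and 477 in the testis table. Between 72.0% and 77.0% of probe sets in the larger table and 82.1% to 82.2% in the testis table reached the floor. Scaled values under 100 were set to that floor before log2 ratios were taken, ratios with 1 array below it are bounds, and none was given with both below. Kept were the 34945 and 10833 probe sets that name a single gene. Left out were 932 and 396 that name several genes (among them 1 naming Acvr2a with Orc4), 9160 and 1193 without a gene name, and 64 and 66 controls. The gene table of GRCm38.p6 matched 34741 and 10817 of those kept and changed no symbol. A gene stood at the probe set with the highest mean over the arrays of its table. Sertoli cells and testis were measured on different arrays, and their signals were not compared. Only the direction of knockout against wild type was set side by side, for the results flagged below.

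The members and lists were chosen with earlier results of these data known, and the motifs after the promoter letters had been seen. The text names all members with all their probe sets. From each pathway list and comparison it names genes among the 4 with the largest log2 ratio in size. It names 3 genes of closest pattern for each member spanning 4-fold. Fstl3 in Sertoli cells against TM4 is given outside that rule, after its values were seen, and single markers are examples. Promoters were found for 8 of the 10 members, all but Amh and Fst. No test was made. The 7 alternatives were the deposited scale, centred ratios, quantile normalization, a floor of 0.1 or of 0.4 times the trimmed mean, averaging over probe sets, and dropping those prone to cross-hybridise. The steps were tested on simulated data. Python 3.11.15, numpy 2.4.6, pandas 2.3.3 and matplotlib 3.10.9 were used.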

Additional observations from a re-analysis of the deposited data

Results flagged for a closer look

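Amh differed in direction between tissues under the same contrast of knockout against wild type at 4 weeks. Its log2 ratio was -0.70 in whole testis (541 in knockout and 877 in wild type) and 0.24 in primary Sertoli cells (381 and 322). Both lay inside the central 95% of all genes, which ran between -0.72 and 0.73 in testis and between -1.11 and 0.72 in Sertoli cells. The values come from different array designs with 1 array a group, and the difference between the tissues was not tested. A gene was flagged when its directions were opposite and each log2 ratio passed the yardstick for probe noise. That was 0.25 in testis and 0.20 in Sertoli cells. The yardstick came from probe sets with signals of at least 500, and Amh in Sertoli cells read below that.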

How the results depend on the processing

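No paired analysis was possible because each group held 1 array. Of 42 counts of members under the 7 alternatives 38 stayed within 1.5 times the main count, as did 38 of 42 counts of pathway genes, and no called log2 ratio of a member changed sign. With log2 ratios averaged over probe sets, members at least 2-fold apart numbered 0 instead of 1 for Sertoli cells at 4 weeks and 1 (Fst) instead of 0 between the knockout ages, where pathway genes numbered 6 instead of 10. Without probe sets prone to cross-hybridisation, members at 4 weeks numbered 2, Amhr2 being added. Under quantile normalization Inhbb passed 2-fold at 10 weeks against wild type (1 instead of 0, log2 ratio 1.01 instead of 0.96). A floor of 0.4 times the trimmed mean left 1 pathway gene instead of 3 for Sertoli cells at 4 weeks and 0 instead of 1 in testis, where 0.1 times gave 2. Over all genes the floors of 0.1 and 0.4 gave 327 and 51 calls instead of 117 in TM4, and that of 0.4 gave 57 instead of 104 in testis. In wild-type Sertoli cells against TM4, Amh had a log2 ratio of -1.01 with scaling, -0.94 when ratios were centred and -0.31 on the deposited scale, where Acvr2a (1.51) and Acvr2b (1.09) passed 2-fold. When probe sets were averaged, Acvr1b moved there to 0.08 and Acvr2a to 1.06, and Amhr2 to 1.45 without cross-hybridising probe sets. Apart from the alternatives' own construction, the cause of these moves was not tested. Signal near the floor limits Fshr on all 5 Sertoli and TM4 arrays and Inha in TM4.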
